A study of Rattus norvegicus with 2 samples.

Results

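The transcripts described here are those of 4 genes of cell adhesion among the 16756 genes in the deposited tables: the cadherins Cdh1 and Cdh2, the β-catenin gene Ctnnb1 and the neural cell adhesion molecule gene Ncam1. They were chosen by name, through their Ensembl identifiers, with earlier results of these data known; the rule itself uses no measured value. All 4 identifiers were present in both libraries. The question put to them was whether these adhesion genes, none of which is CDH12, differed when the CDH12 siRNA was applied to cortical neurons. They do not stand for adhesion genes as a whole. The paper names cell adhesion molecules among the enriched pathways of its downregulated genes, and which genes carried that result was not examined here. RNA was taken from cortical neurons of Sprague Dawley rat fetuses at E18, cultured after removal of the meninges. The cells received either the CDH12 siRNA or the NC siRNA, a universal control duplex, for 36 h. Both duplexes were introduced into the cultured cells by electroporation, so the control shares that step. There was 1 library for each treatment, and the labels do not say how many fetuses a culture came from.

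Classical cadherins are calcium-dependent membrane proteins that hold neighboring cells together through their outer domains. Their inner tails bind β-catenin, which links them through α-catenin to the actin cytoskeleton. β-catenin is also the transcriptional effector of canonical Wnt signaling when it is not bound or degraded. E-cadherin, encoded by Cdh1, is the main cadherin of epithelia, whereas N-cadherin, encoded by Cdh2, is the main classical cadherin of neural tissue and of synaptic junctions. NCAM1 belongs to the immunoglobulin family, binds without calcium and takes part in neurite outgrowth. Its long polysialic acid chains in the embryonic brain are known to loosen cell contacts. CDH12, the target of the siRNA, is a type II classical cadherin.

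In these neurons Cdh2, Ctnnb1 and Ncam1 each had at least 7711 reads in either library, whereas Cdh1 had 4 reads after the NC siRNA and 2 after the CDH12 siRNA. None of the 3 deeply read genes differed by as much as 1.5-fold between the libraries, and for each the 95% interval of counting error lay wholly inside a 1.5-fold change. With the authors' scaling, Cdh2 and Ctnnb1 did not differ beyond counting error. Ncam1 was 0.915 times its NC siRNA level in the CDH12 siRNA library. Its 95% interval of counting error left out no change, and the difference lay inside the middle 95% of the differences of other genes read as deeply. With 1 library per treatment, none of these differences has a replicate check.

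The deposited values were read counts per gene divided by 1 size factor per library, called normalized counts here. Whole reads were recovered from them for 100% of the values. The libraries held 15500488 reads (NC siRNA) and 13699612 reads (CDH12 siRNA). A floor of 3 reads corresponds to 2.83 normalized counts in the control library and 3.18 in the other, or 1.94e-05% and 2.19e-05% of the reads. Intervals are 95% Wilson intervals and, like the floors, cover counting error only, since 1 library per treatment gives no spread between cultures. Reads amplified by PCR are not independent molecules, so the intervals can be too narrow even for counting error. Read numbers also grow with transcript length. No transcript lengths were used here, so read numbers are given as the depth behind each gene and not to order the genes by expression level. In bulk RNA, fewer cells that carry a transcript and less of it per cell cannot be told apart.

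**Figure D1:**
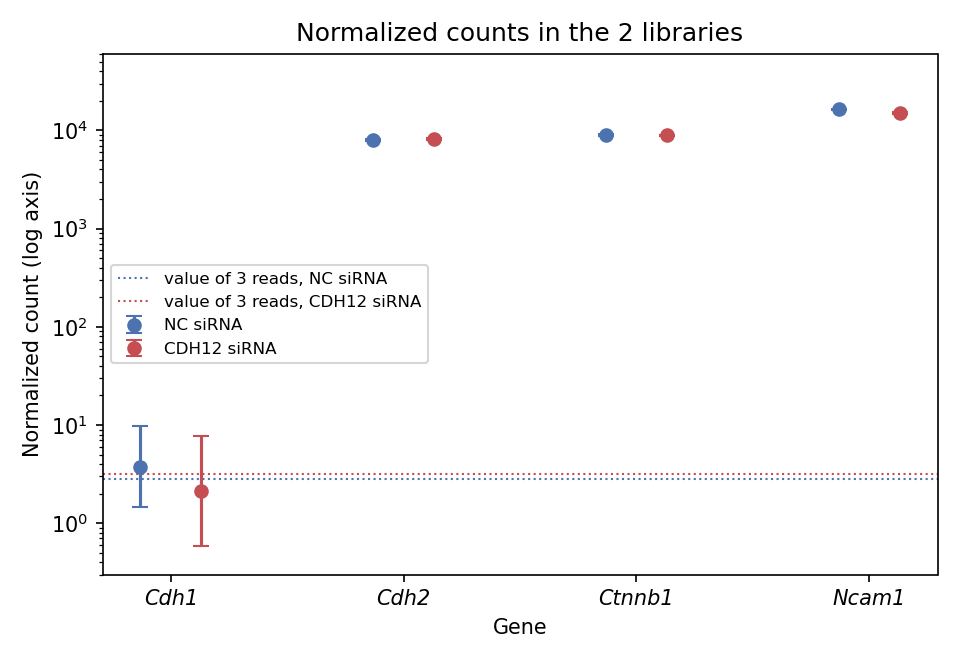
Normalized counts (log axis) of Cdh1, Cdh2, Ctnnb1 and Ncam1, with 1 point for each library, bars for 95% Wilson intervals of counting error and dotted lines at the value of 3 reads. The points of Cdh2, Ctnnb1 and Ncam1 lie between 7962 and 16416 normalized counts with bars about as small as the points, whereas those of Cdh1 lie at 3.78 and 2.12, beside the lines.

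Cdh2 (ENSRNOG00000015602), the N-cadherin gene, had 8433 reads after NC siRNA and 7711 reads after CDH12 siRNA treatment. Scaled to depth, these were 7962 normalized counts (interval 7794 to 8133) and 8168 normalized counts (7987 to 8352). The intervals of the libraries overlapped. The log2 difference, CDH12 siRNA over NC siRNA, was 0.04 with an interval from -0.0077 to 0.08, or a ratio of 1.03 with an interval from 0.995 to 1.06. The counting error at this depth therefore leaves room for a Cdh2 level from 0.995 to 1.06 times that of the control library, and no change lies inside that range. When the libraries were scaled by total reads instead of the authors' size factors, the log2 difference was 0.05 (0.0045 to 0.09), so the interval just left out no change. Of the 609 other genes with 0.5 to 2 times as many reads as Cdh2, 63.7% differed more, in one direction or the other.

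Ctnnb1 (ENSRNOG00000054172) encodes β-catenin, the partner of the cadherin tail. The control library held 9582 of its reads and the CDH12 siRNA library 8386. The normalized counts were 9046 (8867 to 9229) and 8882 (8694 to 9075), with overlapping intervals. The log2 difference was -0.03, with an interval from -0.07 to 0.02, which corresponds to a ratio of 0.982 (0.954 to 1.01). Among the 496 other genes of similar depth, 72.8% differed more. Ctnnb1 thus differed less between these libraries than most genes of its depth. Protein level, phosphorylation and location of β-catenin, through which its activity is mostly set, were not measured by these libraries.

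Ncam1 (ENSRNOG00000031890) had 17388 reads after NC siRNA and 14175 after CDH12 siRNA treatment, the most of the 4 genes. Its normalized counts were 16416 (16174 to 16662) and 15014 (14769 to 15263). The CDH12 siRNA library was the lower one, and the intervals did not overlap. The log2 difference was -0.13 with an interval from -0.16 to -0.10, a ratio of 0.915 (0.8945 to 0.935). Counting error is small for genes read this deeply, and most of them differed beyond it: the intervals of 112 of the 176 other genes with 0.5 to 2 times the reads of Ncam1 (63.6%) left out no change. The log2 differences of the middle 95% of these 176 genes ran from -0.20 to 0.15, and 17 of them (9.66%) lay lower than Ncam1. Ncam1 therefore stood in the lower part of the range for its depth without leaving it. The identifier counts reads of the whole gene, for which the RefSeq table holds 25 transcripts, so its membrane-spanning and lipid-anchored forms were not resolved.

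**Figure D2:**
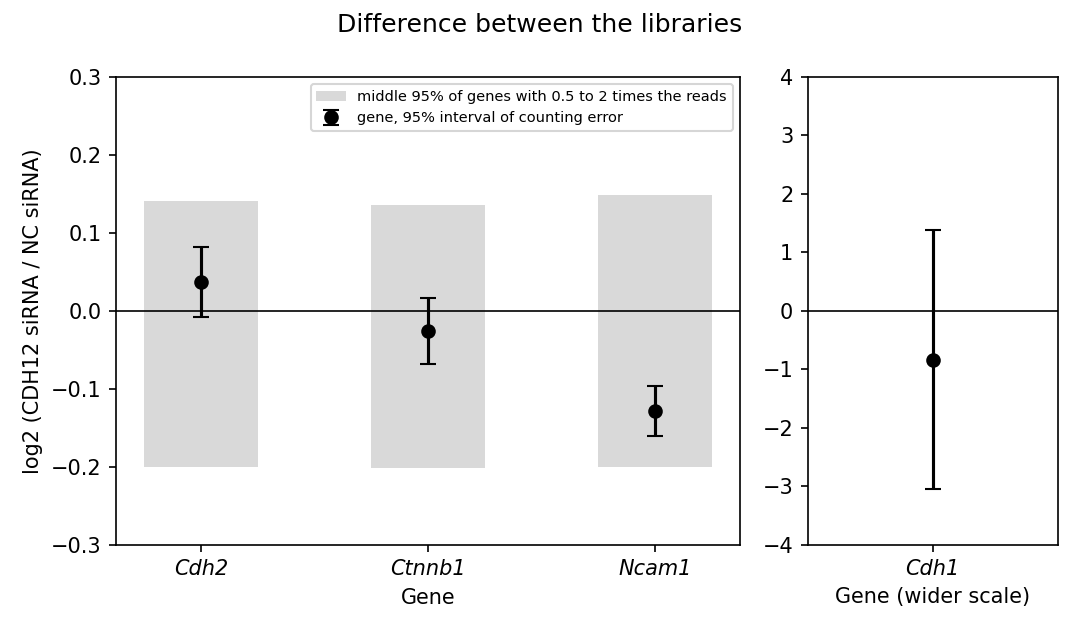
The log2 difference, CDH12 siRNA over NC siRNA, of each gene (points) with its 95% interval of counting error (bars), for Cdh2, Ctnnb1 and Ncam1 on the left and Cdh1 on a wider scale on the right. Grey blocks span the middle 95% of other genes with 0.5 to 2 times the reads. The bars of Cdh2 and Ctnnb1 cross 0, the bar of Ncam1 lies from -0.16 to -0.10 within its block, and that of Cdh1 spans -3.06 to 1.39.

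Cdh1 (ENSRNOG00000020151), the E-cadherin gene, had 4 reads in the control library and 2 reads in the CDH12 siRNA library, or 3.78 and 2.12 normalized counts. These reads are 2.58e-05% of the first library (interval 1e-05% to 6.64e-05%) and 1.46e-05% of the second (4e-06% to 5.32e-05%). With the CDH12 siRNA the gene was thus under the floor of 3 reads, and in the control library it was 1 read above it. The ratio of the normalized counts was 0.561, with an interval from 0.120 to 2.62. Neither a 2-fold rise nor a 2-fold fall lies outside that interval, and a difference in Cdh1 was not detectable at this depth. Of all genes in the tables, 2166 (12.9%) had at most 6 reads in both libraries together, as Cdh1 had. Among the 1764 other genes with 3 to 12 reads, 732 (41.5%) differed by more than 2-fold, with a library at 0 set to the floor. Of these 1764 genes, 44.9% differed more than Cdh1, in one direction or the other. In the RefSeq table Cdh1 lies next to Cdh3, the gene of another classical cadherin, and Cdh1 is also listed as a synonym of Fzr1, which encodes a cell cycle protein and is not meant here.

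The 4 genes were then set beside all genes. At least 20 reads in both libraries together were reached by 13317 genes, and 302 of these (2.27%) differed by more than 2-fold, 172 upward and 130 downward with the CDH12 siRNA. None of the 3 adhesion genes that reached 20 reads was among them, and neither was any of the other genes as deeply read: 0 of 609 genes at the depth of Cdh2, 0 of 496 at that of Ctnnb1 and 0 of 176 at that of Ncam1 passed 2-fold. A result below 2-fold is therefore not particular to these 3 adhesion genes, and other adhesion genes were not examined. The counting interval left out no change for 23.7% of the 13317 genes and for 1 of the 3 adhesion genes. It lay below no change for 12.9% of all genes, and Ncam1 was the adhesion gene among these. The median log2 difference was -0.03 over the 3 adhesion genes and -0.0030 over all 13317 genes. Counting intervals are narrower in genes with more reads, so the share for all genes is lower than the 48.9%, 50.0% and 63.6% found among genes as deeply read as Cdh2, Ctnnb1 and Ncam1, respectively. Among genes of this depth, an interval that leaves out no change was therefore common.

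**Figure D3:**
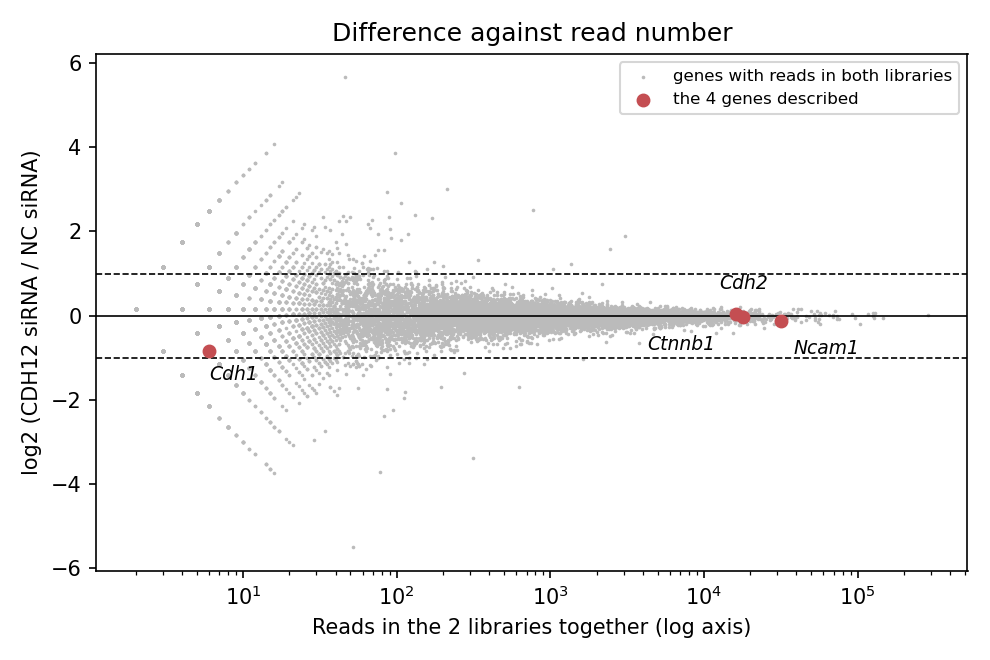
The log2 difference of 15498 genes with reads in both libraries (grey points) against their reads in the 2 libraries together (log axis), with dashed lines at a 2-fold difference and the 4 adhesion genes in red. Cdh2, Ctnnb1 and Ncam1 sit at the right, where the points are narrowly spread, and Cdh1 with 6 reads sits at the left, where they are widest.

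A count model was run as an alternative. The exact test of edgeR on the recovered reads, with Benjamini-Hochberg adjustment over all 16756 genes, called 39 genes (0.233%) at an adjusted p below 0.05, and none of the 4 genes was called. None of them had an unadjusted p below 0.05 in that test, as 667 of the 16756 genes did. The number of genes called ran from 0 to 44 under other assumed spreads and was 14 with the DESeq2 Wald test. The spread was estimated from both libraries taken as 1 group, so any difference between the treatments enters it, and the test compares the 2 libraries and not the treatments.

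Ratios between genes of a library do not depend on how the libraries are scaled. For every 100 reads of Cdh2 there were 113.6 reads of Ctnnb1 in the control library and 108.8 after CDH12 siRNA treatment, a log2 difference of -0.06 (interval -0.12 to -0.0018). The upper end of this interval lies close to 0. Ncam1 had 206.2 reads for every 100 of Cdh2 in the control library and 183.8 in the other, a log2 difference of -0.17 (-0.22 to -0.11). Against Ctnnb1 the Ncam1 reads were 181.5 and 169.0 per 100, a log2 difference of -0.10 (-0.16 to -0.05). These ratios hold the same reads as the differences given above for each gene, so they are no separate evidence on Ncam1, and ratios of other gene pairs were not computed. Their intervals include no spread between cultures. No ratio to Cdh1 is given, since its 2 reads after CDH12 siRNA treatment lay under the floor. Together the 4 genes accounted for 0.228% of all control reads and 0.221% of those after CDH12 siRNA treatment.

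The deposited tables name genes by Ensembl identifiers, and the gene table used here paired 0 of the 16756 identifiers with a symbol. The change of CDH12 itself, the other cadherins, catenins, integrins and Wnt target genes, and the markers that would check the cultures for neurons and other cell types were therefore not analysed here.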

How the data were processed

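RNA-seq values of 2 libraries were analyzed, grouped by the treatment in the sample labels. Per the labels, the authors used a stranded mRNA kit, cutadapt 1.15, HTSeq 0.9.1 and DESeq 1.30.0; the paper names another HTSeq release. The aligner, genome build and strand setting are not given in the sources used here. The deposited signal of each library, under a column name of DESeq, is the authors' gene count divided by a size factor. Reads were recovered by dividing by the smallest non-zero value, and 100% of the values came out whole within 0.001. Reads overlapping several genes could be lost in counting; no gene of the RefSeq table overlaps the 4.

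Differences are log2 ratios of normalized counts without a pseudocount, with a library at 0 set to 3 reads. Intervals were 95% Wilson intervals of the share of a gene's reads in 1 library (scipy 1.17.1, numpy 2.4.6), and ratio intervals used a normal approximation on the log scale. The planned count tests were edgeR 4.0.16 (TMM, trended dispersion from both libraries as 1 group) and DESeq2 1.42.0 (fitted dispersion) in R 4.3.3, as alternatives. Scripts were tested on simulated data. Quasi-likelihood tests need replicates. The genes named are the 4 chosen ones; no gene was named for a similar pattern, since 2 libraries give 1 difference per gene. The genes, lists and tests were chosen with earlier results of these data known. Symbols of the 4 identifiers came with that choice, and the table at hand could not check them. Other scalings, pseudocounts, read minimums, thresholds and intervals were tried.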

Additional observations from a re-analysis of the deposited data

How the results depend on the processing

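The log2 differences of the 4 genes were recomputed under 7 alternatives each. The values with a pseudocount have no interval of their own, and DESeq2's size factors equal the authors' to within 5.4e-06 on the log2 scale, so neither could change sides of the counting threshold and neither bears on stability. Under total reads, TMM, Clopper-Pearson intervals and the range of genes of similar depth, the sides changed only for Cdh2 with total reads and for Ncam1 against genes of similar depth. A pseudocount of 1 or 5 took Cdh1 from -0.834 to -0.6151 or -0.3021, inside its wide interval, and the other genes hardly moved. With total reads as scaling, the interval of Cdh2 left out no change (0.0491). Set against the middle 95% of genes of similar depth instead of counting error, the difference of Ncam1 (-0.1288) was no longer outside. Scalings moved Ncam1 between -0.1288 and -0.1166 and Ctnnb1 between -0.0264 and -0.0142.

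The number of genes over 2-fold (302) was 1228 with at least 1 read, 33 with at least 100 reads and 861 at a fold threshold of 1.5; these settings change which genes are counted. The 39 genes called by edgeR's exact test became 44 with an assumed biological coefficient of variation of 0.1, 14 with the DESeq2 Wald test and 0 with an assumed coefficient of 0.4, at which 82 genes had an unadjusted p below 0.05; the cause was not tested beyond the larger spread assumed. The gene lists were not run, since identifiers were not paired with symbols. No paired analysis was possible because there was only 1 sample in either group, and no replicate could be left out. Depth limits Cdh1, with 6 reads in all.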
